A study of Mus musculus with 6 samples.

Results

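The genes along mouse chromosome 15 were examined in 6 RNA sequencing libraries, of which 3 carry the label si-Control and 3 the label si-Rbm22. The labels describe cardiomyocytes, the contracting cells of the heart, isolated from C57BL/6 mice at postnatal day 1 and used where troponin T staining put the purity above 97.5%. In both groups the cells were in primary culture and were collected 48 h after transfection, with a scrambled siRNA in si-Control and with an siRNA against Rbm22, a splicing factor, in si-Rbm22. Whether each replicate came from its own isolation or litter is not stated, so every spread given here is that between these samples, which may be technical. All genes that GENCODE M21 places on chromosome 15 of GRCm38 and that had at least 30 reads summed over the 6 libraries were taken, in order of their start. This gave 614 members of the 725 genes of the chromosome in the table and of 18951 genes in all, and 585 of the 614 were protein-coding. The chromosome was chosen by its lower si-Rbm22 to si-Control ratio in these same libraries. The differences between the groups described here are therefore a description, without a test, and support nothing by themselves.

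Autosomes are normally present in a pair of copies in every cell type, and each carries an unrelated mix of housekeeping and tissue-restricted genes. Where cells gain or lose a whole chromosome, the transcripts of many genes along it tend to shift together by a modest amount. A change of cell type can move many genes, by small or large amounts and in both directions, wherever they lie. Mouse chromosome 15 holds the Hoxc cluster of developmental transcription factors, a cluster of keratins, the Ly6 family of surface proteins, the oncogene Myc and many genes of translation and the cytoskeleton. DNA copy number was not measured in these samples.

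Marker genes went against the label of the si-Control libraries. Myh6, the alpha heavy chain of cardiac myosin, had 3, 1 and 0 reads in si-Control, but 674460, 661310 and 384503 in si-Rbm22. Over 12 cardiomyocyte markers, the summed level ran from 53.3 to 60.7 CPM in si-Control against 26349 to 40698 CPM in si-Rbm22. CPM stands for counts scaled to the TMM-adjusted library size, as defined by edgeR. All 12 markers were higher in every si-Rbm22 library, and 6 of them (Myl2, Myl3, Myl7, Pln, Nppa and Mybpc3) had no reads in si-Control. Myod1, which directs the skeletal muscle lineage, had 2776, 2833 and 2279 reads in si-Control and none in si-Rbm22. The summed level of 10 skeletal myoblast markers was 609 to 621 CPM against 3.2 to 6.5 CPM, with 8 lower and 1 higher in every si-Rbm22 library. That of 10 fibroblast and matrix markers was 21415 to 23250 CPM against 5698 to 5897 CPM, although 5 of them were lower in every si-Rbm22 library and 3 higher. All 10 endothelial markers were higher, with sums of 4.87 to 6.40 CPM against 308 to 358 CPM. Epicardial and mesothelial markers, 9 in the table and all 9 higher, summed to 52.8 to 55.1 CPM against 2383 to 2618 CPM. The 10 macrophage markers, of which 9 were higher and 1 lower, summed to 19.6 to 22.5 CPM against 123 to 158 CPM. For smooth muscle and pericyte markers (10 genes, 5 lower and 5 higher) the ranges were 3360 to 3392 CPM and 2348 to 2870 CPM. For Schwann and neural markers (7 genes, 3 lower and 4 higher) they were 373 to 399 CPM and 200.4 to 261 CPM. The targeted gene, Rbm22, was at 22.0, 25.2 and 22.3 CPM in si-Control and at 14.6, 13.0 and 13.1 CPM in si-Rbm22, a ratio of 0.583. The part of these marker differences in the values of chromosome 15 was not tested, and fewer cells of a type and less RNA per cell cannot be told apart in bulk libraries. The origin of the si-Control cells beyond their label was not tested either, so the ratios given here may compare unlike cells.

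Promoter sequences are shown for 4 members whose levels in si-Rbm22 ran from overlapping with si-Control to nearly absent, and no higher member is among them. Rpl37 and Eif4b, both of the protein synthesis machinery, were lower in si-Rbm22. Hnrnpa1, a splicing regulator in the same 10 Mb window as Eif4b, had overlapping groups. C1qtnf3, a secreted protein of the C1q and TNF related family, had the lowest ratio of all members with a mean of at least 5 CPM. Each run is the 250 bases before the transcription start in RefSeq (GRCm38.p6), from 5′ to 3′ on the gene's strand, with every CG dinucleotide in capitals.
Rpl37, chr15:5116363-5116612, + strand: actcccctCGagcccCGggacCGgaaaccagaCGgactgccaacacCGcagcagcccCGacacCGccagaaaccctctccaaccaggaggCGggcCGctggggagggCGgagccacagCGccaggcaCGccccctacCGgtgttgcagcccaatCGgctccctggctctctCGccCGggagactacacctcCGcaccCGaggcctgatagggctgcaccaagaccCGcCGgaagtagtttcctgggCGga
Eif4b, chr15:102073523-102073772, + strand: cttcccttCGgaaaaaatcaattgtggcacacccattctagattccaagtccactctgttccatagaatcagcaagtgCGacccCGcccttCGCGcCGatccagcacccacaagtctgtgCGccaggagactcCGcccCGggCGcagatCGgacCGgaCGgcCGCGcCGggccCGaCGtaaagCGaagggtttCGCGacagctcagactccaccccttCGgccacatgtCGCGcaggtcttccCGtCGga
Hnrnpa1, chr15:103240147-103240396, + strand: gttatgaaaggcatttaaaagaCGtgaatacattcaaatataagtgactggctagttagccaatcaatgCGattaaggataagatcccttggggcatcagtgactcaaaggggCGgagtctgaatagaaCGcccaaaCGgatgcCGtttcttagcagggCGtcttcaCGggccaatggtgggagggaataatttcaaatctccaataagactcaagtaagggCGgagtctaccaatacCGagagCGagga
C1qtnf3, chr15:10952082-10952331, + strand: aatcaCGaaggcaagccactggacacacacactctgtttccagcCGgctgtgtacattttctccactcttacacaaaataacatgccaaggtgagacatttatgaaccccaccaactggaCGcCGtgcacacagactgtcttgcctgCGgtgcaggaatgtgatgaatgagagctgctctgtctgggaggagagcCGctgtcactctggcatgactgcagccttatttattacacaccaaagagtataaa
CG reads the same on both strands, and matches do not overlap one another. Of 17653 promoters of this length in the RefSeq table, 1 per gene, 92.8% held at least 1 CG. The Rpl37 promoter held 21, that of Eif4b 26, that of Hnrnpa1 11 and that of C1qtnf3 6. RefSeq promoters were matched for 315 of the 614 members, under the 80% needed for a comparison of promoter content, so no such comparison is given.

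The median log2 ratio of the 614 members, si-Rbm22 over si-Control, was -0.46. Ratios were taken between the group means in CPM, with 0.5 CPM added to each. The 14131 genes of the other 18 autosomes that passed the same minimum had a median of 0.08. The difference, -0.54 on the log2 scale, corresponds to a linear ratio of medians of 0.687. Chromosome 15 had the lowest median of the 19 autosomes. The other 18 medians lay between -0.08, on chromosome 17, and 0.25, on chromosome 7, so the gap from chromosome 15 to its nearest neighbour, 0.37, was wider than the 0.34 that separated all the others. Of the members, 428 (69.7%) lay below the median of the other autosomes. The corresponding share was 56.5% on chromosome 17 and 55.9% on chromosome 11.

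**Figure D1:**
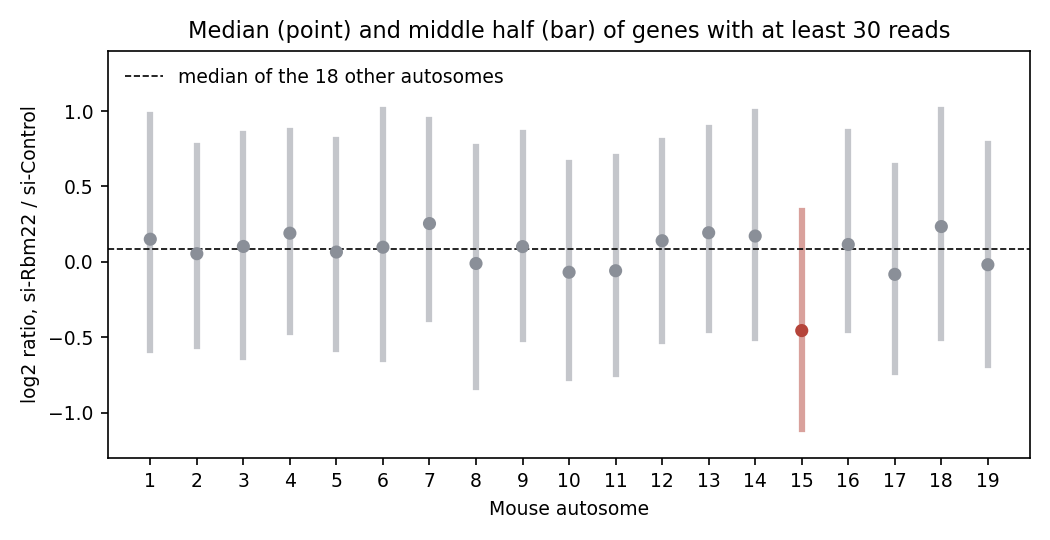
Median log2 ratio of si-Rbm22 over si-Control (point) and the range from the 25th to the 75th percentile (bar) over the genes of each mouse autosome with at least 30 reads, with chromosome 15 in red. The dashed line is the median of the 18 other autosomes, 0.08, and the chromosome 15 point stands at -0.46.

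The lower ratio was not held by a few genes. Put another way, the same share means that 242 of the 614 members (39.4%), taken from the lowest ratio up, would have to be left out before the median reached that of the other autosomes. On chromosome 17, the next lowest, that number was 96 (13.1%). The displacement was close to even through the middle of the distribution. At the 25th percentile the members stood at -1.11 against -0.59 elsewhere, a displacement of -0.51. At the median it was -0.54, and at the 75th percentile, 0.34 against 0.84, it was -0.50. The tails were displaced further. At the 10th percentile the displacement was -0.72 and at the 5th it was -1.38, while at the 90th and 95th it was -0.63 and -0.83. The middle of the distribution was as wide as elsewhere, with an interquartile range of 1.45 on chromosome 15 and of 1.31 to 1.65 on the others. Chromosome 17 was displaced by 0.18 at the 5th percentile, by -0.16 at the median and by -0.88 at the 95th. Its displacement thus changed sign along the distribution, and that of chromosome 15 did not at the percentiles computed. Chromosomes 8 and 10 were also displaced downward at every percentile computed, by -0.08 and -0.14 at the median. Chromosomes 4, 9, 14 and 18 were displaced upward at each, so a constant sign was not particular to chromosome 15.

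**Figure D2:**
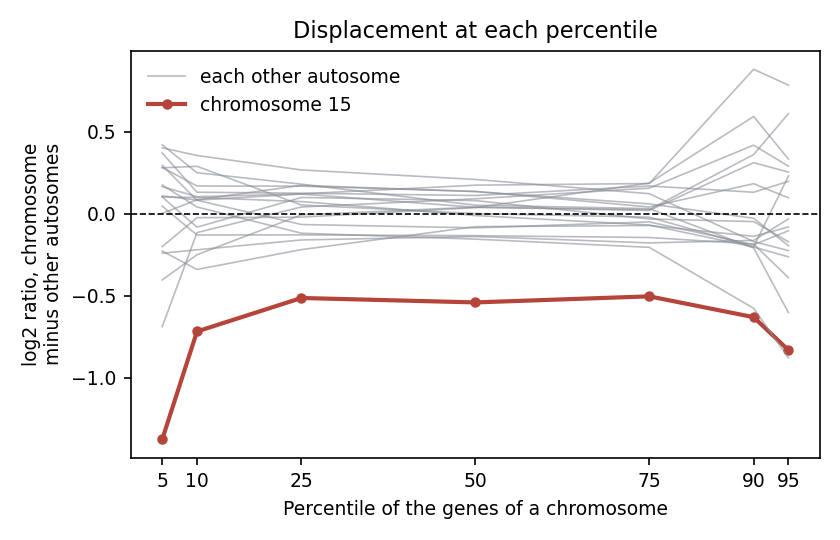
Difference in log2 ratio between each autosome and the pool of all others (vertical axis) at 7 percentiles of its genes (horizontal axis), with chromosome 15 in red and the others in grey. The red line runs between -0.50 and -0.54 from the 25th to the 75th percentile and drops to -1.38 at the 5th.

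Counted in steps of the log2 ratio, 178 members (29.0%) were below -1, against 15.8% of genes on the other autosomes. Another 233 (37.9%) lay between -1 and 0, against 30.7% elsewhere. Between 0 and 1 there were 102 members (16.6% against 31.9%), and above 1 there were 101 (16.4% against 21.5%). So the deficit was largest among genes with small increases, and strongly higher genes were still present. In every si-Rbm22 library 368 members (59.9%) were below every si-Control library, where 39.4% of all autosomal genes with at least 30 reads were. For 163 members (26.5%) every si-Rbm22 library was above, against 44.1% of those genes, and for the other 83 the groups overlapped. In edgeR's quasi-likelihood fit over all genes, 592 members were tested and 356 (60.1%) had an adjusted p under 0.05 with a lower level in si-Rbm22, against 38.9% of all 14621 genes tested. In the higher direction the count was 158 (26.7%), against 43.1%, and 78 members did not pass. These calls come from the contrast that chose the chromosome, and nothing is read from them. In 25 members no read was found in si-Control and in 9 none in si-Rbm22. With those members set at the limit that a count of 0 allows, 3 reads over the group, the median of the 614 was again -0.46. This step could not have moved the median, because each of those members stays on its side of it.

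By the chromosome 15 median, the libraries of a group lay close together. Over all genes, si-Rbm22 replicate 3 stood apart. Its chi-square per degree of freedom, a measure of difference beyond sampling noise, was 30.12 and 30.94 against replicates 1 and 2. Between replicates 1 and 2 it was 10.50, and between si-Control libraries 4.52 to 7.05. Members were compared in each library with their own mean log2 level over the 6, relative to the other autosomes. Their median stood at 0.29, 0.26 and 0.26 in the si-Control libraries and at -0.27, -0.25 and -0.29 in the si-Rbm22 libraries. Centring on the mean of the 6 makes the groups mirror each other, so only the distance between them is informative. Over the 9 pairs of an si-Rbm22 and an si-Control library, which share libraries with one another, the difference from the other autosomes was -0.59 to -0.51. Chromosome 15 was the lowest autosome in 9 of 9. Between 2 libraries of the same group, a comparison that did not enter the choice of the chromosome, the difference lay between -0.02 and 0.01. The share of reads on the chromosome was also lower in si-Rbm22. Members held 6.09%, 6.05% and 6.06% of the autosomal reads of the si-Control libraries and 4.15%, 4.15% and 4.16% in si-Rbm22. The ratio of these shares, 0.684, stood beside 0.687 between the medians. On other autosomes the share of reads and the median could part, as on chromosome 6, with a ratio of shares of 0.807 and a median of 0.10, and on chromosome 14, with 1.616 and 0.17. Without the 10 members with the most reads, the shares were 4.89% ± 0.013 and 3.36% ± 0.046 (SD, n = 3).

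**Figure D3:**
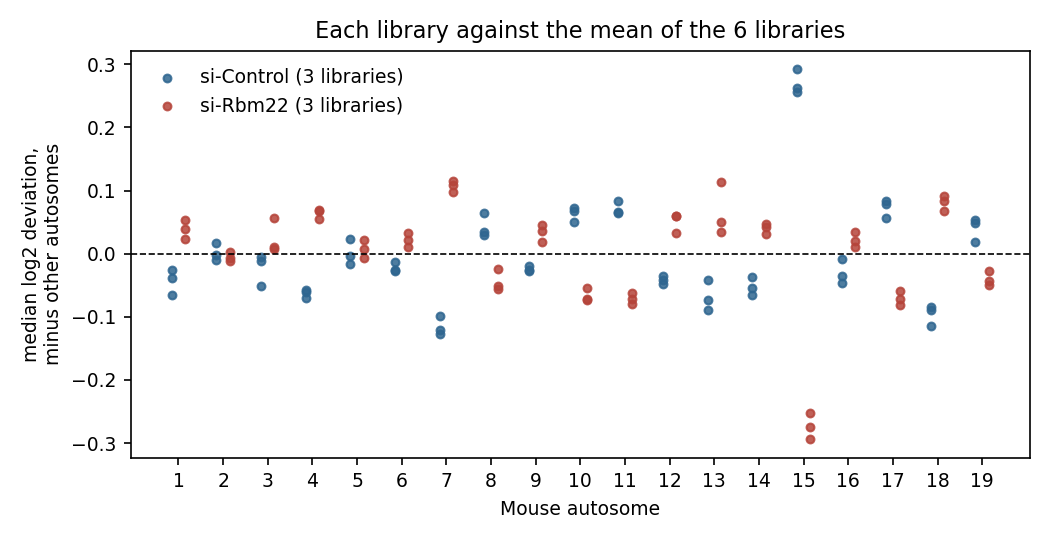
Median log2 deviation of the genes of each autosome from their mean over the 6 libraries, minus that of the other autosomes (vertical axis), for each of the 3 si-Control (blue) and 3 si-Rbm22 (red) libraries. On chromosome 15 the blue points lie at 0.26 to 0.29 and the red at -0.29 to -0.25. The groups mirror each other by construction, since each gene is centred on its mean over the 6 libraries.

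Along the chromosome, members started between 3268547 and 103530279 on GRCm38. In windows of 10 Mb by gene start, all 11 windows had a median below 0.08, the median of the other autosomes. On the other autosomes, 98 of 237 windows of 10 Mb (41.4%) with at least 10 genes did. On chromosome 15, 10 of 11 did with protein-coding genes only, and 14 of 16 did with windows of 5 Mb. The windows were not equal. The lowest median, -0.69, was that of the 144 members between 70 and 80 Mb, of which 114 (79.2%) were below. The 75 members from 100 Mb to the end had -0.67, the 45 between 50 and 60 Mb -0.62 and the 12 between 20 and 30 Mb -0.60. The highest medians, 0.01 and -0.01, belonged to the 17 members between 60 and 70 Mb and to the 30 in the first 10 Mb, where about as many members lay above as below (9 and 16 below). In between were the windows from 80 Mb (-0.42, 118 members), 40 Mb (-0.37, 15), 30 Mb (-0.34, 50), 90 Mb (-0.17, 86) and 10 Mb (-0.15, 22). Of the 237 windows elsewhere, 4 (1.69%) had a median at or below that of the whole of chromosome 15, and 4 of its own 11 did.

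The windows were also described without members at low levels, a filter that drops every gene nearly absent from 1 group. Among the 345 members that reached 10 CPM in every library, a subset chosen after the data were seen, the window between 60 and 70 Mb had a median of -0.36 (8 members) and the window from 90 Mb -0.42 (47). The first 10 Mb remained high, at -0.11 (21 members). Of these windows 8 still held at least 10 members, and all 8 were below -0.04, the median of such genes on the other autosomes. Over all 11, medians ranged from -0.73, again between 70 and 80 Mb, to -0.11. In 5 stretches of 122 or 123 members the medians of all 614 were -0.23, -0.50, -0.73, -0.11 and -0.63 in order of position.

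A running median over 31 neighbouring members lay below 0.08 at 545 of its 584 points (93.3%). Its lowest value, -0.98, was centred on Tarbp2, just before the Hoxc cluster, and its highest, 0.45, on Gm29666. The longest unbroken run of members below the median of the other autosomes had 18 genes, from Hoxc13 to Itga5, and it took in the whole Hoxc cluster. The next had 16 genes, from Eef1d, a subunit of the translation elongation factor, to Grina, and included Scrib, Puf60 and Plec. Runs of 15 genes went from Apol6 to Ncf4, past Myh9, and from Kdelr3 to Cbx7. The longest run not below had 8 genes, from Scube1 to Rtl6.

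**Figure D4:**
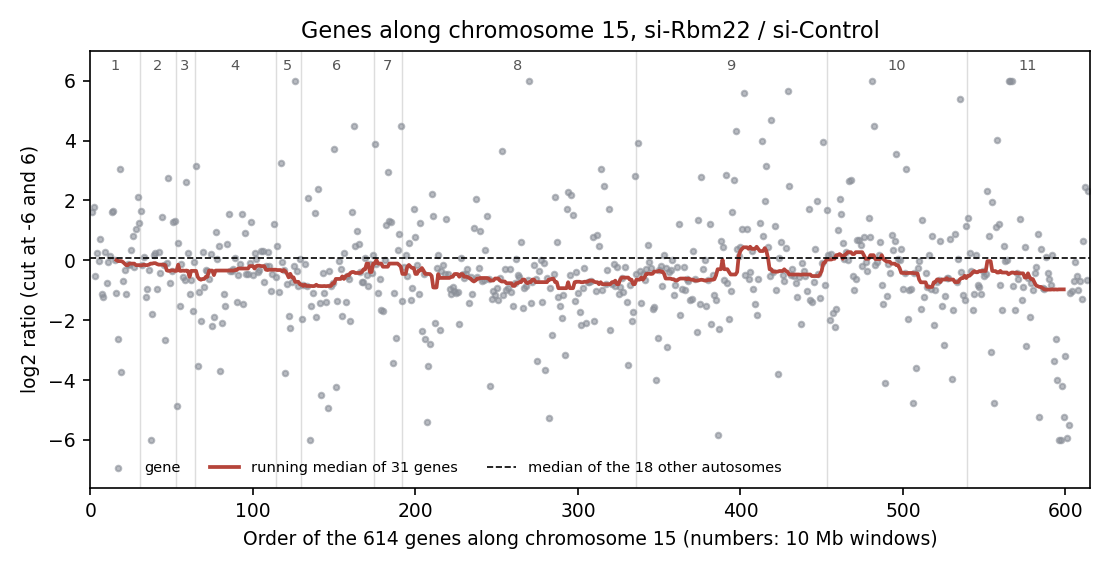
Log2 ratio of si-Rbm22 over si-Control (vertical axis, cut at -6 and 6) of the 614 members in their order along chromosome 15 (horizontal axis), with the running median of 31 members in red and the 10 Mb windows numbered at the top. The red line lies below the dashed median of the other autosomes at 93.3% of its points, with short stretches above it in windows 9 and 10.

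Chromosome 8 shows a different layout. Its median over 832 genes, -0.01, was close to that of the other autosomes, yet it held the lowest windows of all 248, with -1.01 between 80 and 90 Mb (101 genes) and -0.82 between 90 and 100 Mb (63 genes). Its displacement at the 25th, 50th and 75th percentiles was -0.22, -0.08 and -0.07. With all members and 10 Mb windows, chromosome 15 had no window as low as these.

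The offset was seen in most classes of gene. At a mean level of 1 to 10 CPM, 110 members differed from genes of the same level elsewhere by -0.83. At 10 to 100 CPM the difference was -0.55 (287 members) and at 100 CPM and above -0.63 (131 members). Under 1 CPM it was 0.01 (86 members), so no offset was seen in this class. The 0.5 CPM added to each group mean is of the order of these levels and shrinks their ratios. This class can therefore not show whether an offset is absent there. Among protein-coding genes the difference was -0.55, and among the 29 other members -0.25. Members had a higher GC content, with a median of 52.4% for the longest transcript against 49.8% elsewhere. With autosomal genes divided into 3 classes of equal size by GC content, the differences were -0.49, -0.58 and -0.41 from the lowest to the highest class. With 3 classes of exonic length they were -0.51, -0.62 and -0.48. Within these classes of GC content and exonic length, taken 1 at a time, the differences lay between -0.62 and -0.41. The part of either property in the offset was not tested.

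The genes with the most reads in each window make the pattern concrete. In the first 10 Mb, Oxct1, a mitochondrial enzyme of ketone use, had 387, 384 and 418 CPM in si-Control and 397, 408 and 363 CPM in si-Rbm22, and the groups overlapped. Rpl37, a protein of the large ribosomal subunit whose promoter is printed above, had 488, 463 and 487 CPM against 211, 202 and 201 CPM, so all si-Rbm22 libraries were lower. Its ratio was 0.427. Between 10 and 20 Mb, Zfr, a zinc finger RNA-binding protein, was higher, at 266, 260 and 288 CPM against 98.3, 94.9 and 104 CPM. Tars, the threonyl-tRNA synthetase, was lower by a ratio of 0.516. Myo10, an unconventional myosin of filopodia, and Ank, a pyrophosphate transporter, lay between 20 and 30 Mb with ratios of 0.344 and 0.457. In these first windows, genes with and without a lower level stood side by side.

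Pabpc1, the poly(A)-binding protein, had 1092, 1094 and 1040 CPM in si-Control and 754, 793 and 792 CPM in si-Rbm22. Its ratio of 0.725 and that of Ywhaz, a 14-3-3 adaptor, 0.729, were near the offset of the chromosome. Eif3e, a subunit of translation initiation factor 3, had a ratio of 0.572, and Emc2, of a membrane insertion complex, had 0.271. Rad21, the cohesin subunit that closes the ring around sister chromatids, had 397, 416 and 404 CPM against 226, 221 and 224 CPM. Its neighbour Eif3h had a ratio of 0.568. Asap1, which acts on Arf GTPases, and Ccn4, a secreted matricellular protein, were lower by ratios of 0.317 and 0.468 in the window from 60 Mb, although the median of that window was near 0. All 8 genes had every si-Rbm22 library below every si-Control library.

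Lgals1, the lectin galectin-1, and Myh9, the heavy chain of non-muscle myosin IIA, lay in the lowest window. Lgals1 had 2444, 2284 and 2545 CPM in si-Control and 511, 516 and 584 CPM in si-Rbm22. Myh9 had 2219, 2233 and 2098 CPM against 820, 875 and 794 CPM. Both were far below the offset of the chromosome as a whole, with ratios of 0.221 and 0.380. In the windows from 80 and 90 Mb the genes with the most reads went in both directions. Cyb5r3, a cytochrome b5 reductase, and Tuba1a, an alpha tubulin, had ratios of 0.396 and 0.540. Slc38a2, an amino acid transporter, had 445, 462 and 449 CPM against 775, 767 and 780 CPM. Near the end, Eif4b was at 731, 749 and 757 CPM against 404, 423 and 400.4 CPM, and Hnrnpa1 at 485, 482 and 514 CPM against 449.5, 467 and 501 CPM. Of the 22 genes with the most reads in the 11 windows, 17 were lower in every si-Rbm22 library, 3 higher, and 2 overlapped, where the shares over all autosomal genes were 39.4% and 44.1%.

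The extremes of the ratio were genes nearly absent from 1 group. C1qtnf3 had 158, 160 and 170 CPM in si-Control and at most 0.053 CPM in si-Rbm22. Gm10020, a processed pseudogene whose reads could belong to its parent gene or other copies, had 147, 143 and 149 CPM against 1.15, 1.11 and 0.99 CPM. The other 3 of the 5 lowest were Hoxc10, Hoxc11 and Hoxc6. At the other end, Pkhd1l1, a large membrane protein related to fibrocystin, had 0, 0.028 and 0.029 CPM in si-Control and 275, 252 and 283 CPM in si-Rbm22. Mb, the oxygen-binding myoglobin of heart and skeletal muscle, had 8.1, 7.2 and 9.6 CPM against 1795, 1894 and 1323 CPM. The other 3 of the 5 highest were the epithelial and mesothelial keratins Krt8, Krt18 and Krt7. At the minimum of 30 reads, Rxfp3, Elfn2 and Gtsf1 lay just inside, with log2 ratios of 0.16, -0.48 and 0.66. D930007P13Rik, Smc1b and Gm20732 lay just outside, with -0.61, 0.59 and 0.46.

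Gene lists, chosen with earlier results of these data known, were described by their counts and medians beside the median of 0.08 over the other autosomes. Levels of single genes are means ± SD over the 3 libraries of each group, si-Control before si-Rbm22. The counts of lower and higher members are edgeR calls of the contrast that chose the chromosome, and stand against 38.9% lower and 43.1% higher over all genes tested and 60.1% and 26.7% over the members of the chromosome. In all 12 members of translation and ribosome genes the level in si-Rbm22 was lower and passed the test, against 38.9% of all genes, with log2 ratios from -1.23 to -0.46 and a median of -0.81. They include Pabpc1, Rpl37, Eif4b and the eIF3 subunits above, and also Rpl8 and Rpl3, proteins of the large ribosomal subunit. Rpl8 had 1211 ± 29.99 CPM against 636 ± 6.91 CPM. Rpl3 had 912 ± 46.8 CPM against 665 ± 9.68 CPM. Ribosomal protein genes have near-identical processed copies, and how reads were divided among those is not given, so their levels are uncertain. Of 19 RNA processing genes 15 were lower and 2 higher (38.9% and 43.1% over all genes), with a median of -0.50. Ddx17, an RNA helicase, had 569 ± 16.9 CPM against 327 ± 6.47 CPM. Pcbp2, a poly(C)-binding protein, had 502 ± 10.6 CPM against 264 ± 8.32 CPM. Ago2, which carries small RNAs to their targets, was slightly higher in si-Rbm22, with 208 ± 8.77 CPM against 234 ± 15.9 CPM.

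Of 15 members for cell division and DNA replication, 13 were lower and 2 higher (38.9% and 43.1% over all genes), with a median of -0.77. Besides Rad21, they included Cbx5, a heterochromatin protein, with 346 ± 8.09 CPM against 214 ± 6.45 CPM, and Racgap1, needed for cytokinesis, with 266 ± 5.95 CPM against 83.8 ± 6.57 CPM. Gtse1, a microtubule-binding protein of the G2 and S phases, was higher in si-Rbm22, with 61.1 ± 3.14 CPM against 84.1 ± 7.21 CPM. Among 14 tubulin and cytoskeleton genes 9 were lower and 4 higher (median -0.52). Of 27 transcription and growth regulators, 15 were lower and 6 higher, with a median of -0.41. Srebf2, the activator of cholesterol synthesis genes, had 538 ± 27.1 CPM against 219.7 ± 14.9 CPM. Atf4, of the integrated stress response, had 385 ± 27.7 CPM against 246 ± 10.2 CPM. Myc had 57.7 ± 1.03 CPM against 53.5 ± 3.58 CPM, and its groups overlapped.

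Other lists stood higher or were split. Mitochondrial proteins had a median of -0.06 over 16 members, with 7 lower, 4 higher and 5 that did not pass. The share of lower genes was near the 38.9% over all genes tested. Cyc1, the cytochrome c1 of respiratory complex III, was higher, with 124 ± 7.55 CPM against 244 ± 32.2 CPM. Atp5g2, a subunit of the ATP synthase ring, was lower, with 260.5 ± 12.5 CPM against 145 ± 7.31 CPM. Muscle and heart genes had a median of 0.34 over 17 members, with 6 lower and 11 higher. Apart from Mb, the higher ones included Pfkm, the muscle phosphofructokinase, with 107 ± 2.35 CPM against 191 ± 23.98 CPM. Ndrg1 was lower, with 394 ± 14.7 CPM against 65.3 ± 10.04 CPM. Receptors and ligands had a median of 0.45, with 6 of 21 tested members lower and 13 higher (38.9% and 43.1% over all genes). Several of the higher members had a mean level under 1 CPM. Genes at that level had a median of 0.57 on chromosome 15 and 0.56 on the other autosomes. Ghr, the growth hormone receptor, had 75.3 ± 2.66 CPM against 258 ± 1.73 CPM. Lifr, the receptor of leukaemia inhibitory factor, had 267 ± 11 CPM against 42.5 ± 0.713 CPM. The heart gene counts moved with the cardiomyocyte markers given above, and the part of those cells in them was not tested.

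Adhesion and extracellular matrix genes were lower in 17 of 28 members and higher in 8, with a median of -1.09 and a range from -4.87 to 4.68. The share of lower genes was near the 60.1% over the members of the chromosome. Plec, a linker of the cytoskeleton, had 1153 ± 79.6 CPM against 428 ± 54.9 CPM. Plxnb2, a semaphorin receptor, had overlapping groups, with 563 ± 17.6 CPM against 527 ± 38.8 CPM. The summed level of the fibroblast and matrix markers given above was lower in the same libraries, with members in both directions, and their part in these counts was not tested. In the Ly6 family 5 of 7 tested members were lower and 2 higher. Ly6e had 941 ± 69.3 CPM against 151 ± 13.5 CPM. Ly6a, the stem cell antigen Sca-1, had 186 ± 12.4 CPM against 3.95 ± 0.755 CPM. Ly6c1 had 22.6 ± 2.61 CPM against 1.495 ± 0.534 CPM. These paralogs resemble one another closely enough that reads could be split between them.

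The Hoxc cluster and the keratins both lie in the last window and showed opposite differences, near-complete in most members. All 10 Hoxc members, the long non-coding RNA Hotair among them, were lower. Hoxc10 had 1996, 2056 and 1912 reads in si-Control and 1, 0 and 0 reads in si-Rbm22. Hoxc11 had 1550, 1562 and 1397 reads in si-Control and none in si-Rbm22. Hoxc6 and Hoxc4 had means of 32.6 and 22.8 CPM in si-Control, and under 0.04 CPM in si-Rbm22. Hoxc13 was less complete, with 639, 528 and 471 reads in si-Control and 30, 46 and 39 in si-Rbm22. Transcripts of this cluster overlap, and the strand setting of the counting is not given, so the levels of single Hoxc genes and of Hotair are uncertain. Of the 4 keratin members, 3 were higher, and Krt80 had overlapping groups, with 6.903 ± 0.452 CPM against 6.94 ± 1.08 CPM. Krt8 had 0, 0.028 and 0 CPM in si-Control and 149.6, 172 and 141 CPM in si-Rbm22. Krt18 had no reads in si-Control and 98.02, 116 and 101 CPM in si-Rbm22. The epicardial and mesothelial marker sums given above moved the same way as these keratins, and their part was not tested.

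**Figure D5:**
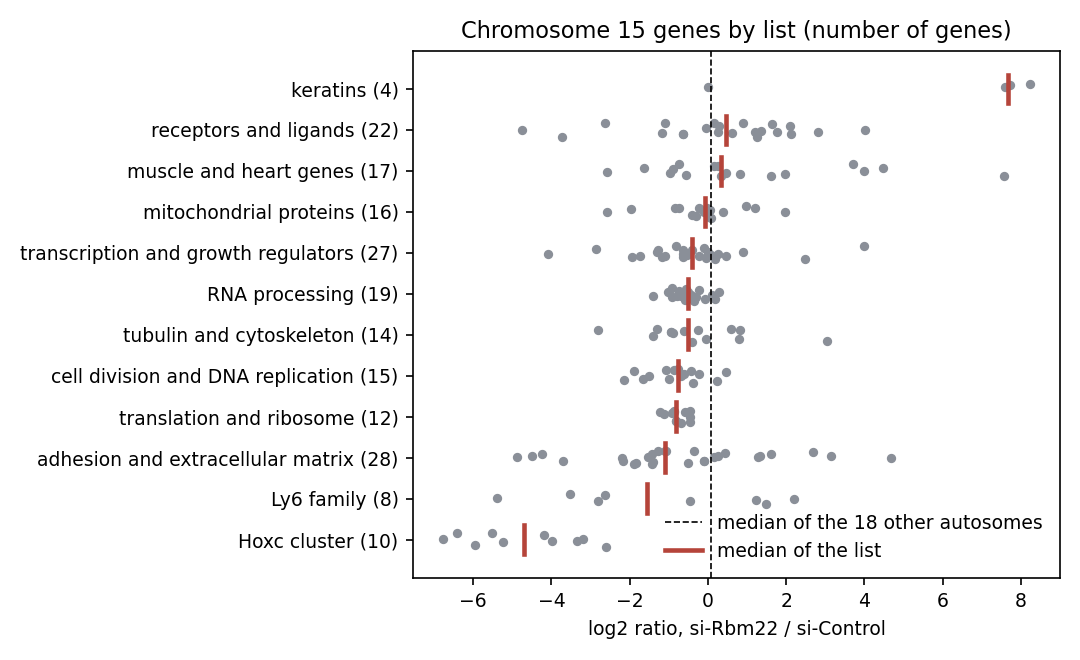
Log2 ratio of si-Rbm22 over si-Control (horizontal axis) of the chromosome 15 members of 12 gene lists (grey points, number of members in brackets), with the median of each list (red bar) and that of the 18 other autosomes (dashed line). The translation and ribosome genes lie between -1.23 and -0.46, and the Hoxc and keratin genes at opposite ends.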

How the data were processed

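The authors deposited raw counts of reads for each Ensembl gene in 6 libraries, without normalization (34269042 to 37344860 reads per library). Per the submitters' processing notes, the build was GRCm38, and the tools listed there, with no version, are HISAT2, HTSeq, fastp and DESeq2. Annotation release and strand setting: not given in the sources used here. Of 18951 identifiers, 18856 matched GENCODE M21, and the other 95 stayed in the fit. Groups came from the sample titles.

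All genes were fitted with edgeR 4.0.16 in R 4.3.3 (TMM, filterByExpr, robust quasi-likelihood test, group only, Benjamini-Hochberg adjustment at 0.05). DESeq2 1.42.0 was an alternative. Chromosome values are medians of log2 ratios of mean TMM CPM plus 0.5. Scripts were tested on simulated data. Named genes were the targeted gene and cell markers, the 2 members with the most reads per 10 Mb window, the 5 lowest and 5 highest ratios at a mean of at least 5 CPM, 3 genes on each side of the 30-read minimum, and up to 4 members with the highest CPM per list. A gene that this rule names is not reported here by name. The members and lists were chosen with earlier results of these data known. Alternatives changed the scaling, read minimum, added CPM, window width and libraries.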

Additional observations from a re-analysis of the deposited data

How the results depend on the processing

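The median of chromosome 15 and its difference from the other autosomes stayed negative under every alternative run. Its median log2 ratio, -0.456, was -0.485 with library totals in place of TMM, -0.486 with TMM computed without chromosome 15, -0.422 and -0.577 at minimums of 10 and 300 reads, -0.576 with at least 1 CPM in each library, and -0.502 and -0.375 with 0.1 and 2 CPM added. Its difference from the other autosomes, -0.541, was -0.601 at 300 reads, and -0.590 and -0.443 with 0.1 and 2 CPM added. With at least 10 CPM in each library, chosen after seeing the data, the median was -0.531 and the difference -0.495. Leaving out 1 library at a time gave medians of -0.484 to -0.451 and differences of -0.561 to -0.528. Windows of 20 Mb were all below the median of the other autosomes (6 of 6), 14 of 16 windows of 5 Mb were, and with protein-coding genes only 10 of 11 windows of 10 Mb were. The change in the share of reads, -1.92 percentage points, was -1.53 without the 10 members with the most reads. The cause of these shifts was not tested. Over all genes edgeR called 11983 of 14621 genes. With RLE size factors in place of TMM, and with replicate number as a block, the same 14621 genes were tested. The remaining settings and DESeq2 tested other numbers of genes. Over all these alternatives, calls ran from 8772 of 10497, with a filter of 10 CPM in 3 libraries, to 13057 of 18951 with no filter. The groups share replicate numbers, but same-numbered libraries did not deviate together (correlations of -0.017, 0.005 and 0.005). So few libraries cannot show whether same-numbered samples shared an isolation or litter, which is not stated. With the replicate block 11945 genes were called. Depth limits the members under 1 CPM, and 111 genes of the chromosome fell below the minimum.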
